A study of Zea mays with 36 samples.

Results

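TE1 (terminal ear1) was measured in maize shoot apical meristems against whole seedlings by 1 probe on each of 2 cDNA slide sets. It was chosen by its name in the platform's gene annotation, and is 1 of 740 genes named there. The probe was 1 of 18302 with values on the first slide set and 1 of 12027 on the second, and the annotation gives both the same sequence accession. Plants were of the inbred line B73 and 14 days old. Each of 6 biological replicates paired a pool of 6 to 10 laser-captured meristems, taken with the P0 and P1 leaf primordia, with a pool of 6 whole above-ground seedlings. Each pair was hybridised to 1 slide of each set, with the meristem RNA in Cy3 on odd replicates and in Cy5 on even replicates, which gave 12 slides and 36 scans. The tissues differed in their extraction reagents, an effect that cannot be told apart from that of tissue. Some 10 ng of total RNA was amplified by T7 transcription before labelling, and the seedling pools also contained their own meristems.

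TE1 encodes an RNA-binding protein of the MEI2-like family, related to the Mei2 protein of fission yeast, which is needed for meiosis. In maize, loss of terminal ear1 gives plants with more leaves, shorter internodes, leaves in irregular positions and a tassel that takes on features of an ear. Its transcript has been located in the shoot apex near the sites where leaves arise, and the gene is regarded as a regulator of where and when leaves are initiated. The related rice gene PLASTOCHRON2 limits the rate of leaf initiation.

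TE1 lay far on the meristem side in every replicate on both slide sets. On the first set its ratio averaged 6.77 ± 0.91 on the log2 scale (SD, n = 6), or 109-fold, and no other named gene was as high. On the second set it averaged 3.58 ± 0.38 (SD, n = 6), or 12-fold, again the highest mean of the named genes once scans and probes were averaged. The same RNA pairs therefore gave means on the 2 sets that differed 9.08-fold, and this gap was 3.49-fold at the high and 47.8-fold at the low scan setting. Values are log2 ratios of meristem over seedling, averaged per slide over 3 scans whose medians had been set to 0. In such bulk RNA, more cells that express a gene and more RNA per cell cannot be told apart.

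No source used here names the tissue in the numerator, so the direction is called likely. It rests on genes of photosynthesis, which whole green seedlings should carry in excess: 7 of 9 measured by the first set and 10 of 10 by the second passed on the negative side in limma, where 45.2% and 45.7% of all named genes did. The list's median ratio was −5.71 and −5.83, respectively. The gene rbcS, for the small subunit of Rubisco, averaged −5.71 ± 0.6 and −5.64 ± 0.4 (SD, n = 6), and ppdk1, for an enzyme of the C4 cycle measured on the second set alone, averaged −4.53 ± 0.59 (SD, n = 6). The exceptions on the first set were Cab-m7, a chlorophyll-binding protein gene, at 1.09 ± 0.92, and psbQ, of photosystem II, at 0.26 ± 0.36 (SD, n = 6). By the second set these averaged −4.28 ± 0.42 and −6.07 ± 0.87 (SD, n = 6), so TE1 was not alone in reading differently on the 2 sets. Positive values are called the meristem side below.

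On the first set, the log2 ratios of TE1 in replicates 1 to 6 were 7.43, 5.96, 5.87, 7.04, 6.17 and 8.12. All 6 slides were on the meristem side, from 58.5-fold in replicate 3 to 278-fold in replicate 6, and replicates 1, 4 and 6 were above the others. On single slides TE1 ranked between 22 and 85 of 18302 probes. By its mean, 33 probes were higher, or 0.18% of the probes, and of the 1787 probes that carry a gene name TE1 had the highest mean. Its limma estimate had a standard error of 0.32 and a 95% interval from 6.01 to 7.52, with an adjusted p of 8.9e-06. The interval covers only the spread of slides around the average of 3 scans. The means at single scan settings, 9.23 at low, 5.77 at medium and 5.3 at high, lay outside it. Of all probes on the set, 31.5% passed on the meristem side and 31.0% on the seedling side, so passing the test was common. The spread of TE1 over slides was larger than usual: 79.1% of probes had a smaller SD, and the median probe's SD was 0.53. Ordered by limma's moderated t, TE1 was at position 94.

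The second set gave log2 ratios in replicates 1 to 6 of 3.35, 3.31, 3.3, 3.4, 4.1 and 4.05. Replicates 1 to 4 lay close together near 10-fold, and replicates 5 and 6 were higher, at 17.1-fold and 16.6-fold. No slide fell on the seedling side. TE1 ranked between 90 and 300 of 12027 probes on single slides and 113 by its mean, with 0.931% of probes above it. Among the 753 named probes its mean was at position 2, and after the probes of each gene were averaged it was the highest of 455 genes. By single scan settings its probe was at position 7 of the named probes at low, 2 at medium and 3 at high, whereas on the first set it was at position 1 at each. The standard error was 0.16, the 95% interval ran from 3.2 to 3.97 and limma's adjusted p was 9.7e-06. Here 33.4% of probes passed on the meristem side and 31.2% on the seedling side. The SD of TE1 was close to that of the median probe, 0.38, and 51.1% of probes had a smaller one.

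**Figure D1:**
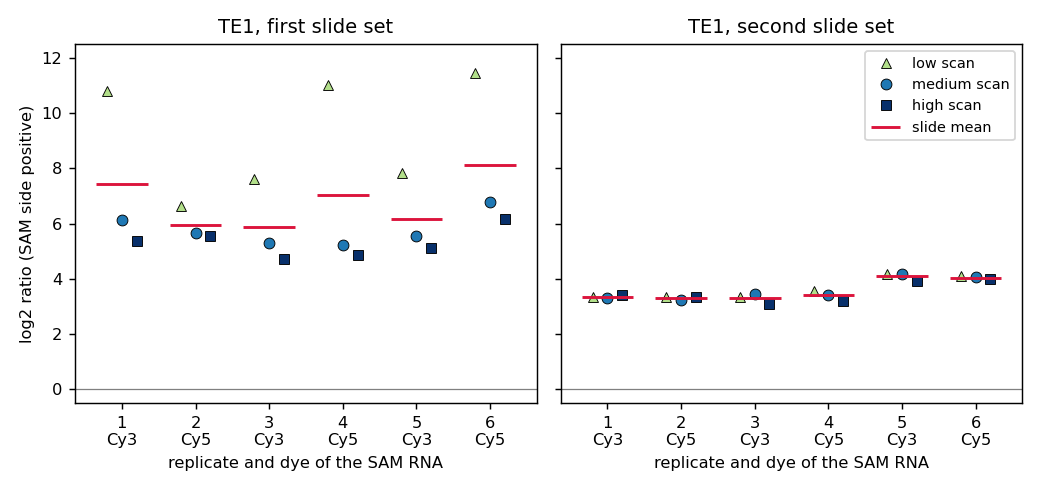
TE1 log2 ratio of meristem over seedling for each replicate on the first and second slide sets, with a marker for each of the low, medium and high scans and for their mean. On the first set the low scans of replicates 1, 4 and 6 lie above 10 while the high scans lie between 4.73 and 6.15; on the second set the 3 scans of a slide lie within 0.37 of each other.

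No dye effect on TE1 passed the test on either set. On the first set TE1 averaged 6.49 over the 3 slides with meristem RNA in Cy3 and 7.04 over the 3 with it in Cy5. The limma dye term was −0.275 with a standard error of 0.32 and an adjusted p of 0.558. The second set's averages were 3.58 and 3.59, and the dye term had an adjusted p of 0.996 in limma. For comparison, 12.7% of probes had a dye term past the threshold in the first fit and 8.41% in that of the second set.

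**Figure D2:**
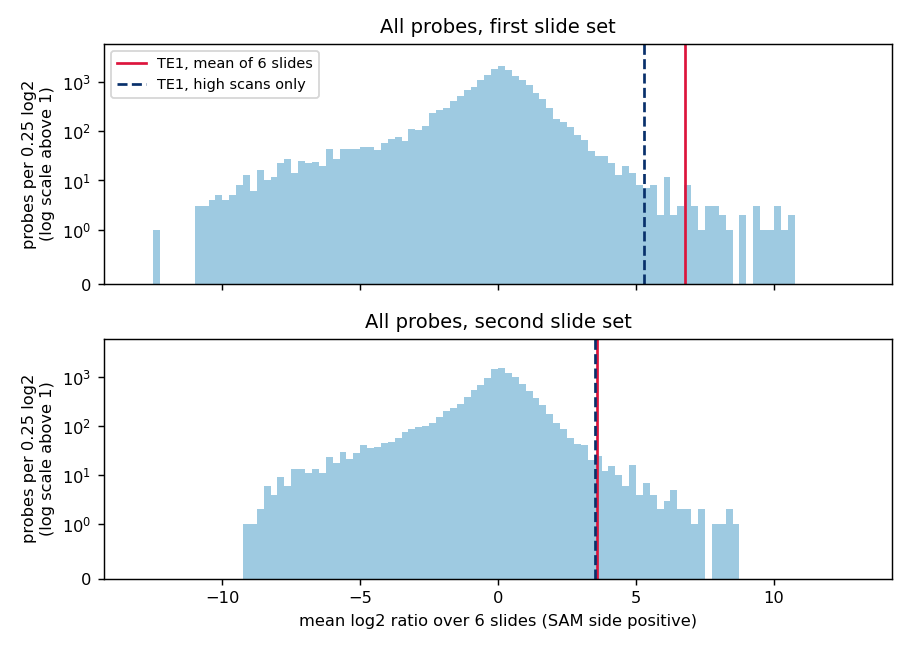
Distribution of the mean log2 ratio over 6 slides for all probes of each slide set (number of probes on a log axis), with TE1 marked. TE1 lies in the upper tail on both sets, with 33 probes above it on the first and 112 on the second.

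The scan setting changed the size of the TE1 ratio on the first set much more than on the second. Scans differed in laser power and detector gain, and each slide contributed a low, a medium and a high scan. At the low setting on the first set, TE1 read 10.8, 6.65, 7.6, 11.03, 7.85 and 11.44 in replicates 1 to 6. At the high setting the same slides read 5.37, 5.57, 4.73, 4.87, 5.12 and 6.15. The low-scan readings fell apart into replicates 1, 4 and 6, above 10, and replicates 2, 3 and 5, below 8, whereas the high-scan readings formed 1 narrow range. The medium scans read 6.13, 5.67, 5.29, 5.23, 5.55 and 6.77, near the high ones. The mean fell from 9.23 ± 2.09 at the low scan to 5.77 ± 0.59 at the medium and 5.3 ± 0.52 at the high scan (SD, n = 6), or from 599-fold to 54.7-fold and 39.4-fold. The 3 slides with the highest averaged TE1 ratios were those with the highest low scans.

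High minus low scan on the first set was −5.43, −1.07, −2.87, −6.16, −2.73 and −5.29 in replicates 1 to 6. All 6 slides moved the same way, by −3.92 ± 1.99 on average (SD, n = 6). The exact sign-change permutation test gave a two-sided p of 0.0312, the smallest that 6 slides allow. It was 0.0781 after Benjamini-Hochberg adjustment over 5 tests on TE1, which did not pass the threshold. Given the p of the other tests, no outcome on 6 slides could have passed after this adjustment. For the second set the change was −0.15 ± 0.17 (SD, n = 6), with an exact permutation p of 0.125 and an adjusted p of 0.208. There the low scans read 3.33, 3.34, 3.35, 3.56, 4.19 and 4.1 and the high scans 3.42, 3.35, 3.08, 3.21, 3.93 and 3.99. The order in which replicates 5 and 6 lay above the others held in each of the 3 scans.

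On the first set the rise from high to low scan at TE1 was larger than at nearly all other probes. Low minus high was 3.92 for TE1 on the first set, against a median of 0.04 over all probes, and 49 probes, or 0.268%, had a larger value. This count kept the sign, so seedling-side probes whose low scan lay far below the high scan were not in it. Low scans lay farther from 0 than high scans in general. Of 2681 probes with a high-scan mean above 1, the low scan was higher in 84.4%, and of 3521 probes below −1 it was lower in 80.1%. Among the 23 probes whose high-scan mean was within 0.5 of that of TE1, the median step was 1.45, 20 had a smaller step than TE1 and 3 a larger one. The second set's step at TE1 was 0.15, smaller than in 53 of 74 such probes.

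**Figure D3:**
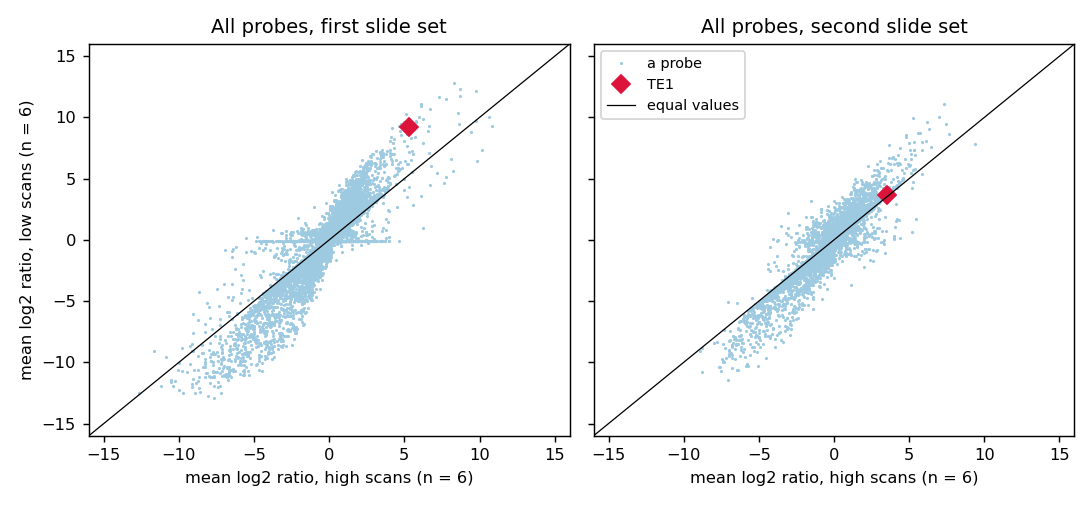
Mean log2 ratio at the low scan (vertical axis) against the high scan (horizontal axis) for every probe of each slide set, averaged over 6 slides, with TE1 marked and the line of equal values drawn. TE1 lies well above the line on the first set, at 9.23 against 5.3, and close to it on the second, at 3.65 against 3.5.

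Low scans also held more spots than medium or high scans at a single shared value, the commonest value of the scan. Between 764 and 1494 spots of a low scan were at that value on the first set, against 29 to 163 of a high scan. In replicates 1 to 6 the low-scan numbers were 995, 1140, 764, 1082, 1087 and 1494. These counts cover whole scans and do not describe the TE1 spot itself. Low scans of the second set had between 101 and 977 such spots. As a share this was 0.84% to 8.12%, against 4.17% to 8.16% in the first set's low scans. Ratios above 8 on the log2 scale were held by 26 to 171 probes of a low scan on the first set, and TE1 was among them in 3 low scans and in no medium or high scan. The part of either count in the TE1 ratio was not tested.

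The mean TE1 ratios on the 2 slide sets were separated by 3.18 on the log2 scale (SD of the 6 paired differences 0.86), or 9.08-fold. The lowest first-set slide, at 5.87, was above the highest second-set slide, at 4.1. The exact permutation test over slides gave a two-sided p of 0.00216, the smallest of 924 arrangements, and 0.0108 after adjustment over the 5 tests. In replicates 1 to 6 the first set exceeded the second by 4.08, 2.66, 2.57, 3.64, 2.07 and 4.07. The sign was therefore the same in 6 of 6 replicates, and with the replicate block the exact sign-change permutation p was 0.0312, the smallest that 6 pairs allow. Adjusted over the same 5 tests this became 0.0781, so the difference passed the threshold without the block and did not pass with it. Given the p of the other tests, no outcome of the block test could have passed after adjustment, so it cannot decide the question. At the high scan alone the gap shrank to 1.95, 2.23, 1.64, 1.66, 1.19 and 2.15, with a mean of 1.8 ± 0.39 (SD, n = 6), or 3.49-fold. At the low scan alone it was 5.58, or 47.8-fold. The 2 sets were thus apart at each scan setting, by amounts that differed strongly. The other 2 of the 5 tests were correlations of TE1 between the sets over replicates. Since replicates 5 and 6 stood apart from the others on the second set, no pooled correlation is given, and no cluster held enough replicates for one.

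Few other genes differed as much between the sets. For 297 genes named on both, the median difference was −0.07, the median absolute difference was 0.42, and the correlation of the means across genes was 0.77, where genes are not independent replicates. A larger positive difference than that of TE1 was seen for 3 of these genes, the photosynthesis genes psbQ and Cab-m7 above and PEAMT, for a methyltransferase of choline synthesis, at 2.66 and −1.82. In either direction 11 genes had a larger one. TE1 was also 1 of 20 probes with a sequence accession shared by both sets. The differences of the other 19 ran from −3.04 to 1.18, with a median of 0.15, and all 19 were smaller in size than that of TE1. At the high scan alone, 18 of the 19 were smaller, and Lsi6, related to a silicon transporter of rice, was larger in size at −2.07.

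**Figure D4:**
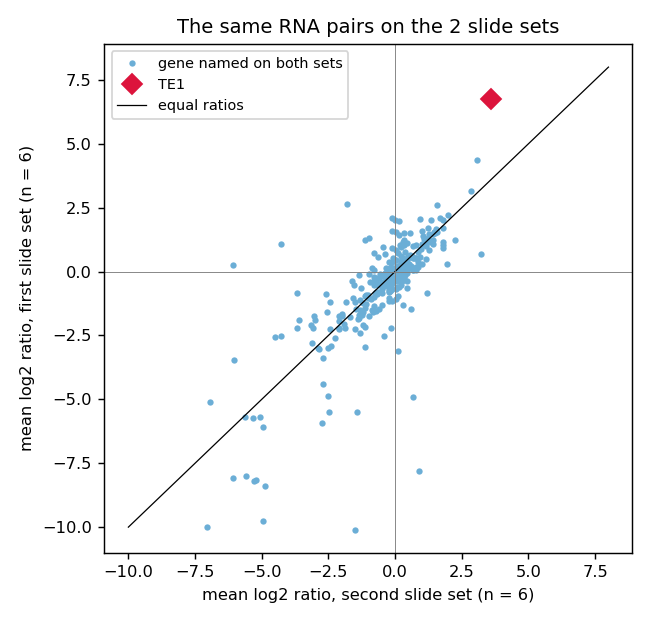
Mean log2 ratio on the first slide set (vertical axis) against that on the second (horizontal axis) for 297 genes named on both, each over 6 slides, with TE1 marked. TE1 is the highest gene on both axes and lies 3.18 above the line of equal values.

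TE1 stood clear of the next named genes on the first set and much less so on the second. On the first set the next highest were ae1, which encodes a starch branching enzyme, at 4.78 ± 0.93, zr1 at 4.64 ± 1.34 and tacs1 at 4.37 ± 0.85 (SD, n = 6). TE1 exceeded ae1 and tacs1 on 6 of 6 slides and zr1 on 5. The second set's next were GRF11 at 3.43 ± 0.85, the knotted1-like homeobox gene lg3 at 3.22 ± 0.77 and tacs1 at 3.06 ± 0.28 (SD, n = 6). TE1 exceeded GRF11 on 4 of 6 slides and lg3 and tacs1 on 5 of 6, so the order at the top of the second set lay within the spread of the slides. These comparisons set ratios, not transcript levels, side by side.

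Genes that act in leaf initiation, meristem maintenance and leaf polarity lay mostly on the meristem side with TE1. Leaving TE1 out, 11 of 16 genes measured by the first set passed toward the meristem in limma, 2 toward the seedling and 3 in neither direction. Of all 582 named genes there, 27.1% passed toward the meristem and 45.2% toward the seedling. The median ratio of the 16 genes was 0.73, against −0.24 for all named genes. By the second set 9 of 13 passed toward the meristem, 4 in neither direction and 0 toward the seedling, also 0 at an unadjusted limma p under 0.05. Among all 455 named genes of that set, 27.9% passed toward the meristem and 45.7% toward the seedling. The medians were 0.94 for the list and −0.22 for all. Some calls toward the meristem did not hold under all 18 alternative settings. On the first set the call of yab10 was lost under 11 of them, and those of kn1 and ns2 under 7. The second set's call of yab9 was lost under 11 and that of yab14 under 8. All members were chosen by name, with earlier results of these data known.

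The members differed in size, and none came near TE1 on the first set. The highest there was lbl1, which is needed to make the small RNAs behind leaf polarity, at 2.6 ± 0.22 (SD, n = 6). The next was ig1, which restricts growth of the female gametophyte and marks the upper leaf side, at 2.04 ± 1.19. The gene rs2, which keeps knotted1-like genes off in leaves, averaged 1.67 ± 0.23 and then 1.52 ± 0.34 on the second set, while rld1, a leaf polarity gene, averaged 1.49 ± 0.24 and 1.4 ± 0.31 (SD, n = 6). These agreed between the sets more closely than TE1. The knotted1-like genes lg3 and kn1 lay farther apart between the sets than rs2 and rld1, though less far than TE1. Averages of lg3 were 0.7 ± 0.4 on the first but 3.22 ± 0.77 on the second set (SD, n = 6). Those of kn1, which maintains the meristem, were 0.3 ± 0.25 and 1.95 ± 0.37 (SD, n = 6). The call of kn1 on the first set, with an adjusted p of 0.0322 in limma, was lost under 7 of 18 alternative settings. The gene fea2, whose receptor-like product restrains the growth of meristems, was measured on the second set alone and averaged 1.88 ± 0.34 (SD, n = 6). Those that passed toward the seedling on that first set were knox7 at −0.79 ± 0.37 and BA1, a gene for branch initiation in the inflorescence, at −1.13 ± 0.35 (SD, n = 6).

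**Figure D5:**
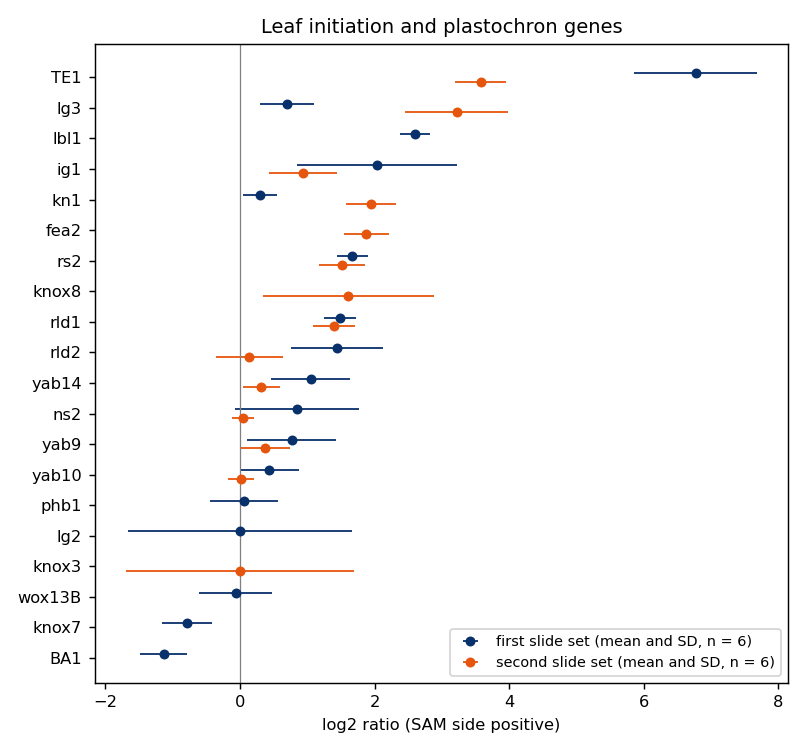
Mean log2 ratio of meristem over seedling for each measured gene of leaf initiation, meristem maintenance and leaf polarity on the first and second slide sets, with bars of 1 SD over 6 slides. TE1 is highest on both, at 6.77 and 3.58, and most other members lie between 0 and 3.

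The captured tissue was compared with markers of its cell types. All measured meristem and leaf primordia markers are also members of the list above. Their counts therefore repeat part of that list and are no separate check. The meristem markers were knotted1-like genes taken by name, and whether each of them marks meristems was not checked. Of these, 2 of 3 passed toward the meristem in the first set's fit and 3 of 4 in the other. Among all named genes 27.1% and 27.9% did. The third on the first set, knox7, passed toward the seedling, and kn1, 1 of the 2 that passed, lost its call under 7 of 18 settings as above. For leaf primordia these counts were 4 of 4 and 2 of 3, with the first-set call of ns2 lost under 7 of 18 alternative settings. Epidermal markers passed toward the meristem in 2 of 3 and 1 of 3 cases, the latter near the share of all named genes. Their part in the TE1 ratio was not tested. No other named gene matched the search for MEI2-like or RNA-binding proteins on either set, so TE1 has no family member here to be compared with.

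Across the 12 slides, with each set centred on its own mean, the gene whose profile was most like that of TE1 was Pds, which encodes phytoene desaturase of carotenoid synthesis. Its Pearson r with TE1 was 0.75 over 12 slides, 0.74 within the first set and 0.78 within the second, although its own mean was on the seedling side, at −2.99 ± 0.98 and −2.9 ± 0.36 (SD, n = 6). The next were ns2, a homeobox gene for the leaf margin, with r of 0.7, TPS9 with 0.62, hmg2 with 0.61 and rs2 with 0.59. Apart from Pds, their likeness lay mainly in the first set. The r of ns2, for example, was 0.84 there and −0.86 on the second set. Over all 296 other genes on both sets r ran from −0.77 to 0.75 with a median of 0.04. The profiles used the average of 3 scans, and the first-set SD of TE1 was 2.09 at the low scan and 0.52 at the high scan. Whether the same genes would be most like TE1 at a single scan setting was not tested. On the second set TE1 was higher in replicates 5 and 6 than in the others, which weighs on every r that includes that set. The slides share RNA pairs and scan settings between genes, so these values describe the slides and carry no test.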

How the data were processed

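The authors' deposited values are log ratios of the 2 channels per spot and scan, read here as natural log and converted to log2. Not given in the sources used here are the base, numerator, background handling and normalization. The base was taken from the values: among 18036 pairs of repeated values around the commonest value of a scan, 96 lay 2 natural logs of a whole number from 2 to 30 apart (tolerance 2e-05), against 3 for log2 and 0 for log10.

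Of 19200 spots on the first set, 898 held no value. Of 14080 on the second, 2001 held none and 53 identical ones counted as 1. Symbols came from the platform annotation and, for names only, the assembly table Zm-B73-REFERENCE-NAM-5.0, where TE1 is a synonym. The 23 first-set probes with several gene names were left out of gene values. The labels of 1 high scan (replicate 4, first set) name seedling tissue for both channels; its sample name was followed. Scans were centred on their median, which was between −0.08 and 0.057 (log2), and 3 scans were averaged per slide.

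limma 3.58.1 (R 4.3.3) was run with a dye term beside the mean on 6 slides of each set, with Benjamini-Hochberg adjustment over all probes or named genes and a threshold of 0.05. Exact permutation tests used scipy 1.17.1 and numpy 2.4.6. limma was tested on simulated data. The labels pair the sets: each RNA pair lies on 1 slide of each. The number of slides limits precision, and standard errors had medians over probes of 0.159 and 0.119. Genes named are TE1, the 3 nearest in rank on each set, the 5 most like it over 12 slides, the list members, and kn1, rbcS and ppdk1 as tissue checks; Cab-m7, psbQ, PEAMT and Lsi6 were added after their values were seen. The members and lists were chosen with earlier results of these data known. Alternatives covered centring, scaling, scan, summary, dye term, robust eBayes, log base, dye orientation and leaving out replicates.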

Additional observations from a re-analysis of the deposited data

Results flagged for a closer look

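The difference in TE1 between the first and the second slide set, 3.18 on the log2 scale, stood out because the same RNA pairs gave different ratios on slides that carry the same sequence accession for the gene, by an exact permutation test of the difference without the replicate block. That test takes slides with the same RNA pair as independent. The difference was positive in 6 of 6 replicates, and with the block its adjusted p of 0.0781 (exact permutation) did not pass. No outcome of the block test could have passed, given the p of the other tests. No TE1 value of a single slide was set apart by its gap to the next value of its set. That measure cannot show slides that stand apart together, as replicates 5 and 6 of the second set did.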

How the results depend on the processing

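TE1 kept its direction and its limma call under all 18 alternatives on each set. Of these, taking the values as log2 rescales every ratio alike, so it could change neither. The first-set ratio ran from 4.69 (values taken as log2) to 9.23 (low scan alone) and from 6.5 to 7.04 with 1 replicate left out. The second-set ratio ran from 2.48 to 3.74, and from 3.46 to 3.66 with 1 replicate left out. The dye terms passed under no setting. The difference between the sets ran from 1.8 (high scan) to 5.58 (low scan), was 1.98 from the medium and high scans (a setting added after seeing the data), and ran from 3.0 to 3.4 with 1 replicate left out. With the replicate block it was 3.18, with an exact permutation p of 0.0312, the smallest possible. Adjusted over 5 tests this p was 0.0781, so the difference was past the threshold only without the block, in a test that ignores the pairing. With meristem RNA in Cy3 alone it was 2.91, and in Cy5 alone 3.46, each with an exact permutation p of 0.1, the smallest that 3 against 3 slides allow. High minus low scan on the first set was −3.67 and −4.18 in these orientations (exact permutation p of 0.25) and ran from −4.49 to −3.48 with 1 replicate left out (exact permutation p of 0.0625), again the smallest p possible. On the second set it turned to 0.08 when scans were scaled to the same spread, with an exact permutation p of 0.344, and passed under no setting. Correlations of TE1 between the sets passed under no setting. Counts of probes and of leaf initiation genes past the threshold stayed within 1.5 times the counts given. Precision is limited by the slide number, and the log base and the direction rest on the values alone.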
